A study of Mus musculus with 6 samples.

Results

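The genes described here are 44 genes of mitotic entry, the spindle, the kinetochore and cytokinesis. They were listed by function, with earlier results of these data known. Each was read from the probe set that names that gene alone, and where a gene had several such probe sets from the one with the highest mean over the arrays. Of the 44 genes, 43 were measured among 19938 tested genes. Ccnb1, the cyclin B1 gene, has no probe set of its own in the annotation used and was not analysed here. All values are log2 probe set values, so that a difference of 1 is a doubling of signal, and levels of different genes were not compared because each comes from its own probes.

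Mitosis begins when the kinase Cdk1, bound to cyclins A and B, is switched on by Cdc25 phosphatases. Chromosomes condense, kinetochores form on their centromeres and catch spindle microtubules, and a checkpoint holds the cell until all are attached. The anaphase promoting complex then marks securin and B-type cyclins for destruction, separase parts the sister chromatids, and a contractile ring guided by the central spindle divides the cell. Most of these genes are transcribed late in the cycle, so their RNA is used as a sign of how many cells of a culture are dividing.

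RNA came from bone marrow stromal cells (BMSCs), which attach to plastic and can form bone or fat. They were taken from wild-type mice (WT, 3 arrays) or from knockout mice (KO188, 3 arrays), the targeted gene being microRNA-188 by the series title. All mice were of C57BL/6 background and 6 months of age. Both groups grew in 1 osteogenic medium, which held 10% serum, ascorbate-2-phosphate at 0.05 mM, beta-glycerophosphate at 10 mM and dexamethasone at 100 nM. The sources used here do not give the day of harvest, the knockout allele's design or the animals' sex. The probe set of Mir188 did not separate the groups: it read 7.15, 7.13 and 7.16 in WT and 7.03, 7.13 and 7.09 in KO188 (-0.06, limma adjusted p = 0.24; with each array centred on its median, -0.12 and 0.029). Whether its probes lie in the deleted part is not stated, so it does not check the labels, and KO188 means the arrays so labelled. The labels do not say whether each biological replicate had its own mouse or culture, so that p-values measure only the spread between these samples, and no batch or culture day is named, so that genotype and anything else shared by the 3 KO188 cultures cannot be told apart.

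Array medians over all probe sets were 7.43, 7.44 and 7.44 in WT and 7.46, 7.50 and 7.47 in KO188. Every KO188 median thus lay above every WT median. Arrays of a group correlated across genes at r = 0.9988 to 0.9993, against 0.9909 to 0.9912 between groups. Genes are not independent replicates. Of 13 measured stromal markers, Sparc, Col1a1 and Col1a2 were the brightest, with group means between 12.79 and 13.93. Others were dim: Eng had means of 7.78 in WT and 7.82 in KO188, and Thy1 of 6.88 and 6.79. Lepr, a receptor gene of marrow stroma, read 5.08 to 5.26. That is under 6.73, a value that 95% of 1190 odorant and vomeronasal receptor genes do not exceed. It was taken as an approximate level of genes that are silent here and is called the receptor guide. Of the 13 stromal markers, 12 were above it as means over the 6 arrays. All 43 mitotic genes were above that guide in both groups, from 8.94 to 12.69 as means over the 6 arrays.

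Nearly all of the listed mitotic genes were lower in KO188. Of 43 measured genes 41 fell, 1 rose and 1 did not pass (limma, adjusted p under 0.05), while over all tested genes 16.5% were lower and 13.3% higher by the same test. The median change of the 43 genes was -0.33, a level 20.7% below WT, beside -0.01 for all tested genes. The fallen genes ran from Plk1 (-0.12) to Kif23 (-0.59). Of them, 34 fell by 0.2 or more and 5 by 0.5 or more. All 3 KO188 arrays lay below all 3 WT arrays in 42 of 43 genes, against 22.7% of all tested genes. In RNA from a whole culture, fewer dividing cells and less of each transcript per dividing cell cannot be told apart.

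With each array centred on its median, which moved all changes down by 0.05, 42 of the 43 genes fell and 1 rose, against 25.7% of all tested genes lower and 9.93% higher; over all calls, the share that was higher went from 44.5% to 27.9%. When limma's treat test asked for a change beyond 1.1-fold, 30 of the 43 were lower, against 5.92% of all tested genes.

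**Figure D1:**
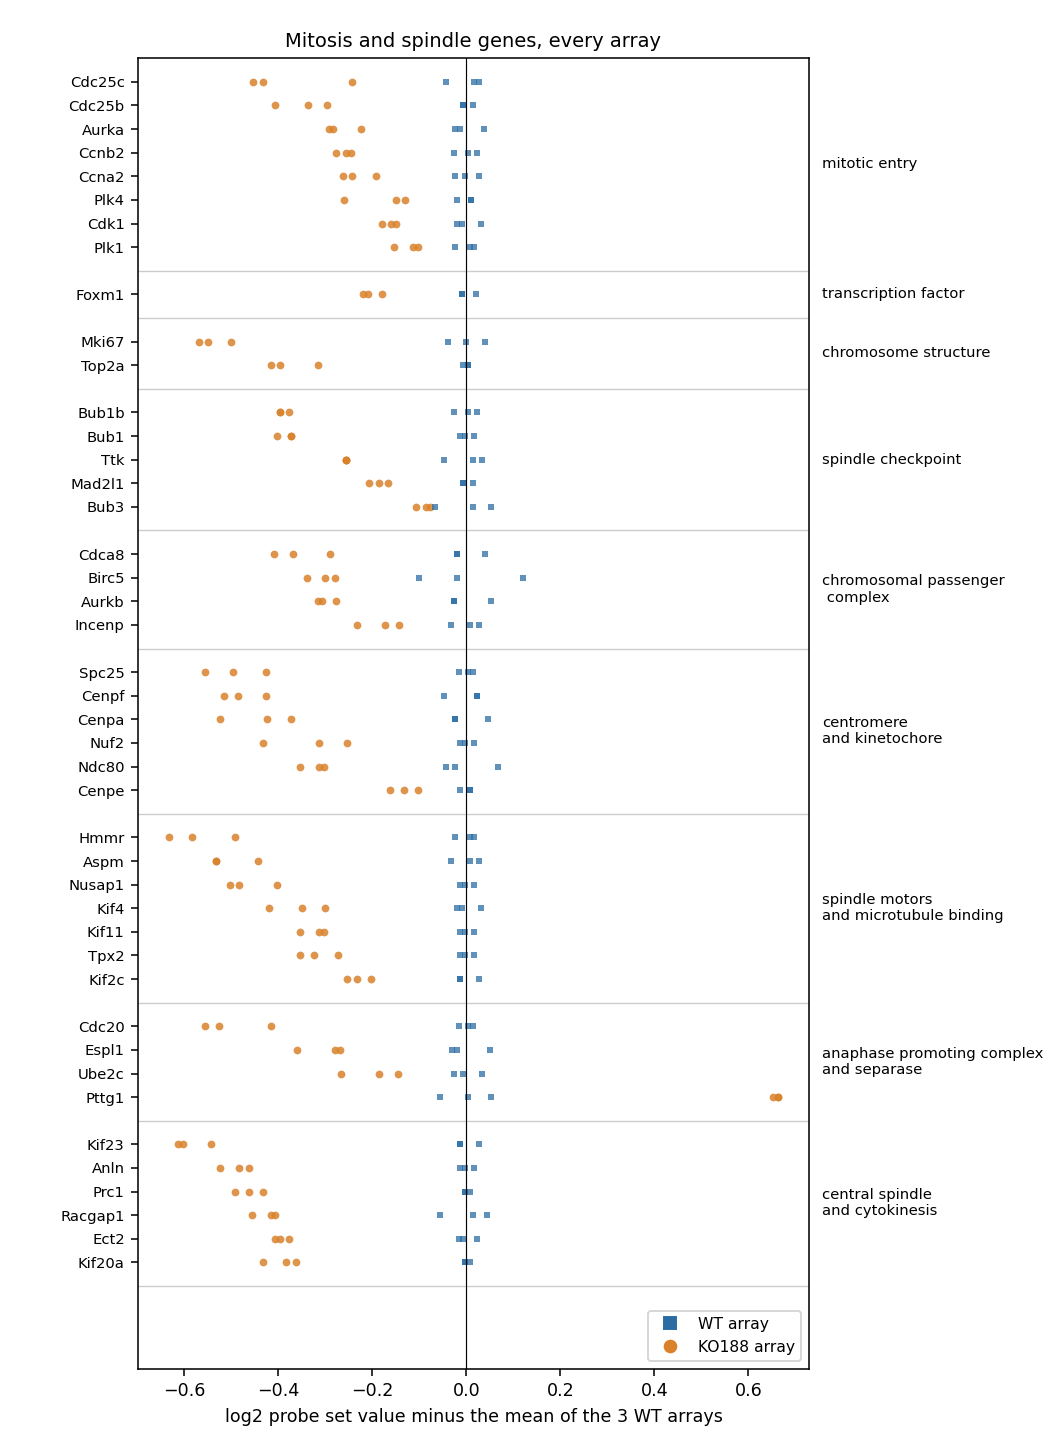
Each row is 1 gene, grouped by function; the horizontal axis gives its log2 probe set value on each array minus the mean of the 3 WT arrays, with squares for WT and circles for KO188. The KO188 circles lie left of the WT squares in 42 of 43 rows, and Pttg1 is the row where they lie to the right.

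The arrays of a group had similar mean levels over these genes, but many of the genes shared the same highest or lowest array. The mean level over the 43 genes was 11.20, 11.19 and 11.22 in WT replicates 1, 2 and 3, and 10.91, 10.88 and 10.86 in KO188 replicates 1, 2 and 3. The 2 groups did not overlap. KO188 replicate 1 held the highest of the 3 KO188 values in 32 of 43 genes (74.4%, against 40.9% of all tested genes), and KO188 replicate 3 the lowest in 23 (53.5%, against 37.4%). In WT, replicate 3 was highest in 25 genes (58.1%, against 43.4%). The median SD per gene was 0.02 in WT and 0.04 in KO188, several times smaller than the median change.

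The promoters of many of these genes share short elements, which are shown here as a trait of genes listed by function. Whether the elements have a part in the changes was not tested. In cell cycle genes the CHR, with the letters TTTGAA, is bound by the MuvB complexes that hold such genes off in resting cells and switch them on before mitosis, and the CCAAT box is bound by the factor NF-Y. RefSeq windows of assembly GRCm38.p6, from 250 bases before to 50 after a start site, were at hand for 36 of the 43 genes, 39 windows in all since Bub3, Ect2 and Prc1 have 2 overlapping ones; Kif20a, Cdc25c, Tpx2, Foxm1, Ccna2, Aurkb and Incenp have no window here. The windows of the 2 genes that fell most, of the kinase of mitotic entry, of a fallen gene with neither element, of the gene that did not pass and of the gene that rose are printed below 5′ to 3′ on the gene's strand. Capitals mark TTTGAA or its reverse complement TTCAAA, and CCAAT or its reverse complement ATTGG.
Kif23, chr9:61946750-61947049, minus strand: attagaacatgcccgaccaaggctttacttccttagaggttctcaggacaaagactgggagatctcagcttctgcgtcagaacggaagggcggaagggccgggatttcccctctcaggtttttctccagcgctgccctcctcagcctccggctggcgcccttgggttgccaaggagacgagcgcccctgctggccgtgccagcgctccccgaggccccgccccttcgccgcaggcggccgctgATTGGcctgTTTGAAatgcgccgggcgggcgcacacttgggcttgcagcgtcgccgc
Hmmr, chr11:40733388-40733687, minus strand: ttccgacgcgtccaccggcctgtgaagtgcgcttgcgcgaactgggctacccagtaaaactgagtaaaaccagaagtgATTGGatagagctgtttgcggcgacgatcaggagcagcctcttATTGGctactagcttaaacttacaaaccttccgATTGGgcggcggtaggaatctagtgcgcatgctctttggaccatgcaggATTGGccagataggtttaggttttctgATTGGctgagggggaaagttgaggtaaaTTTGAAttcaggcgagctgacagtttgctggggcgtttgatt
Cdk1, chr10:69352863-69353162, minus strand: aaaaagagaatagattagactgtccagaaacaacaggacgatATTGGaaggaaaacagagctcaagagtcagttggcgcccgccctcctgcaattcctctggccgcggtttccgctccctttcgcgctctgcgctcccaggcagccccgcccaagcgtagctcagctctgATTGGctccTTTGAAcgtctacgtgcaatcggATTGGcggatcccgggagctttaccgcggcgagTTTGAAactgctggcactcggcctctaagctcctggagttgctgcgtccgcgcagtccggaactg
Nusap1, chr2:119618048-119618347, plus strand: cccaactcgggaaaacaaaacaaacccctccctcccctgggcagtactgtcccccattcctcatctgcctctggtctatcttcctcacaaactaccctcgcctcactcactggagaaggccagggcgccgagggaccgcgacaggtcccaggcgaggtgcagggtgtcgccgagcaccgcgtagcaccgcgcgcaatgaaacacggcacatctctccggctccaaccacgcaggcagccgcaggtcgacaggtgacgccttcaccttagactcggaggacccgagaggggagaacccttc
Bub3, chr7:131560120-131560419, plus strand: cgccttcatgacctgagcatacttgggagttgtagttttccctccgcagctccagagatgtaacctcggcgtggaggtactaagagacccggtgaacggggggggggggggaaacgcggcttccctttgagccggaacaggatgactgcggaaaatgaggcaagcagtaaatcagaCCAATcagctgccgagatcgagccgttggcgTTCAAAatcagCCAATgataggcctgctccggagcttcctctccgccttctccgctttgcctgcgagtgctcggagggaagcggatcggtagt
Pttg1, chr11:43425932-43426231, minus strand: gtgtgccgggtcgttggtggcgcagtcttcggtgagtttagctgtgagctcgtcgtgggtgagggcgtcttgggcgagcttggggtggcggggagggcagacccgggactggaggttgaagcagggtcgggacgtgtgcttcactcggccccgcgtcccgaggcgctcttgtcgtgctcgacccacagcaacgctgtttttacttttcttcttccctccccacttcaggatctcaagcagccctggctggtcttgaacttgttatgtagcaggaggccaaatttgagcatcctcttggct

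Both strands were searched for exact matches. TTTGAA was found in 30 of 39 windows (76.9%), against 17.9% of 32851 windows of all genes, and CCAAT in 30 of 39 (76.9%), against 37.4%. Both stood in the same window in 27 of 39 (69.2%), against 7.0%, and 20 windows (51.3%, against 11.7%) had 2 or more CCAAT boxes. The variant TTTAAA, which reads alike on both strands and shares no full match with TTTGAA, was in 10 (25.6%, against 13.2%). The matches were also placed alike: 28 of 37 TTTGAA matches (75.7%) began within 50 bases of the start site, against 25.3% of those in all windows, and 28 ran in the direction of the gene (75.7%, against 53.3%). Overlapping windows of a gene share matches, and the windows of these genes had a median GC content of 58.7%, against 52.7% for all windows.

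Tested genes outside the 43, further mitotic genes among them, were counted in the same way, with no test of the difference. Among the 1052 such genes with TTTGAA and CCAAT in the same window, 16.1% were lower in KO188, against 16.9% of all 15578 other tested genes with a window and 16.6% of the 7640 with neither. Within the 43 genes, the 24 with both had a median change of -0.38, from -0.59 to -0.09, and the 6 with neither had a median of -0.25, from -0.47 to 0.66. Those 6 genes are Pttg1, which rose, and Nusap1, Nuf2, Mad2l1, Birc5 and Plk4, which fell. A match of letters is a description of the window and not evidence of binding, and a window without one says only that these letters are not in it.

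**Figure D2:**
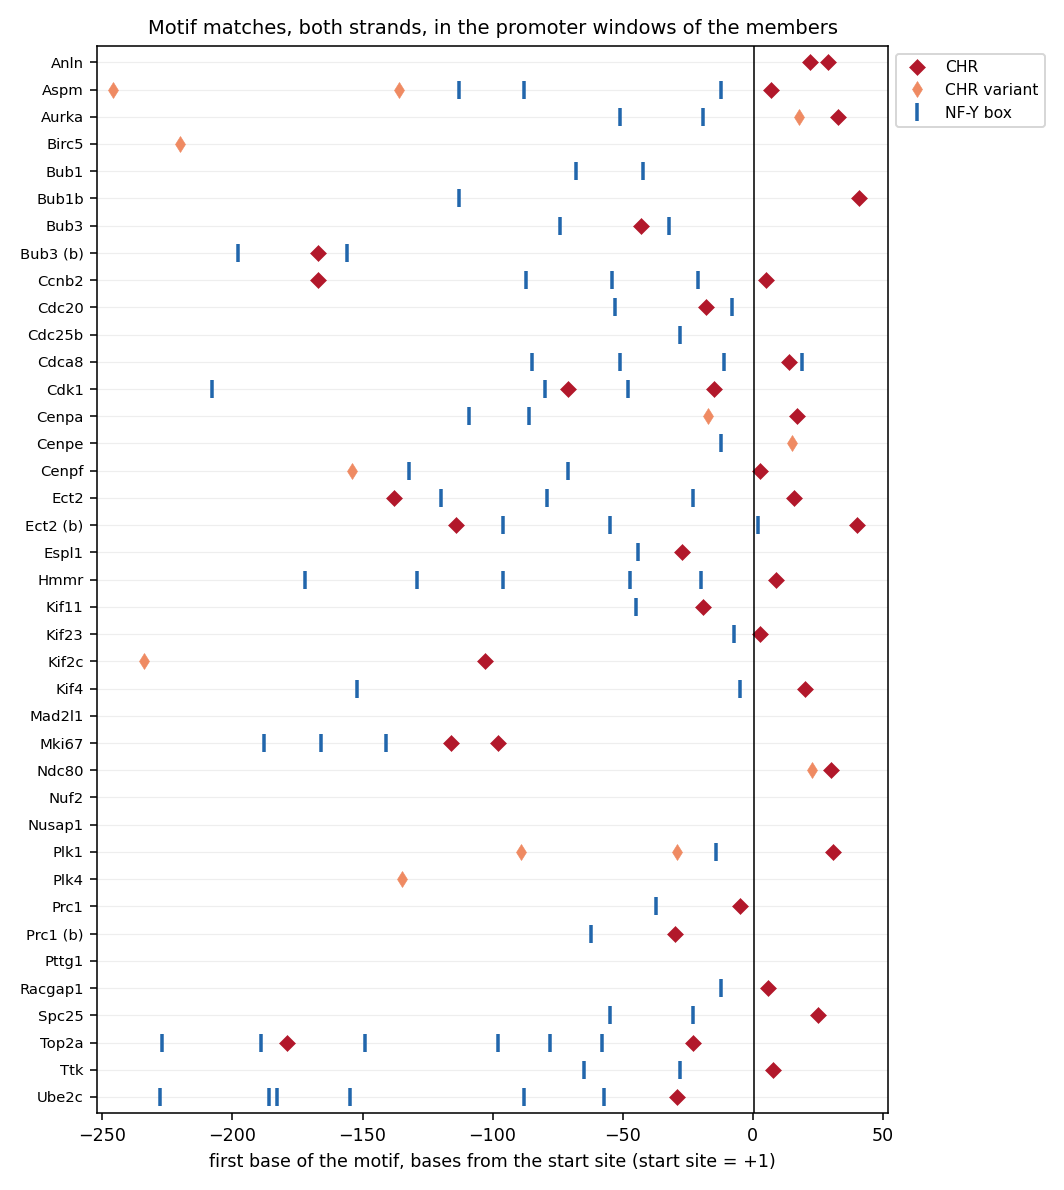
Each row is the promoter window of 1 gene, with a second window marked (b); the horizontal axis gives the first base of each match, in bases from the start site. Diamonds mark the CHR, thin diamonds its variant and bars the CCAAT box (the NF-Y box), on either strand. In most rows a CHR lies close to the start site with CCAAT boxes upstream of it, and the rows of Mad2l1, Nuf2, Nusap1 and Pttg1 are empty.

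All 8 measured genes of mitotic entry fell, with a median of -0.25. Cdc25b, a phosphatase gene that activates the Cdk1 kinase, read 10.28, 10.28 and 10.30 in WT and 9.95, 9.99 and 9.88 in KO188. This was a fall of 0.35 (SE 0.033, limma adjusted p = 0.00041), or 21.5%. Ccnb2, the cyclin B2 gene, read 12.79, 12.74 and 12.77 in WT and 12.52, 12.49 and 12.51 in KO188, a change of -0.26 (SE 0.026, adjusted p = 0.00054). For both genes the KO188 arrays lay close to each other and clear of WT. Cdc25c, another Cdk1-activating phosphatase gene, fell by 0.38, with KO188 replicate 1 (8.88) above the other two (8.69 and 8.67).

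Cdk1 itself fell by 0.16 (10.7%), Aurka, the centrosomal Aurora kinase gene, fell by 0.26, and Ccna2, the cyclin A2 gene, fell by 0.23. Plk1, a kinase gene that acts from entry to cytokinesis, fell by 0.12 (adjusted p = 0.013), and Plk4, which starts centriole duplication, fell by 0.18 (adjusted p = 0.015). The Plk4 call was lost without WT replicate 1 or WT replicate 3 (adjusted p = 0.055 each). Foxm1, the gene of a transcription factor that drives late cell cycle genes, read 11.28, 11.31 and 11.28 in WT and 11.11, 11.07 and 11.08 in KO188. It fell by 0.21 (SE 0.026, adjusted p = 0.0013), with no overlap between groups.

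The 2 genes of chromosome structure also fell, with a median of -0.46. Mki67, which encodes the Ki-67 antigen that coats mitotic chromosomes, read 12.13, 12.21 and 12.17 in WT and 11.60, 11.67 and 11.62 in KO188, a fall of 0.54 (SE 0.034, adjusted p = 6.9e-05), or 31.4%. The gap between the groups was far wider than either group's own range. Top2a, the gene of the topoisomerase that untangles sister chromatids, read 11.99, 11.99 and 11.98 in WT and 11.59, 11.67 and 11.57 in KO188, a fall of 0.37 (SE 0.033, adjusted p = 0.00031). A dimmer probe set of Top2a, at 4.45 in WT and 4.53 in KO188 and thus under the receptor guide, did not pass among all probe sets (0.08, adjusted p = 0.71), and the mean of both did not pass either (-0.15, adjusted p = 0.25).

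Of the 5 spindle checkpoint genes 4 fell. Bub1, a checkpoint kinase gene, read 11.81, 11.82 and 11.84 in WT and 11.45, 11.45 and 11.42 in KO188, a fall of 0.38 (SE 0.025, adjusted p = 7.4e-05). Bub1b, which encodes the BubR1 subunit of the checkpoint complex, read 10.82, 10.85 and 10.87 in WT and 10.45, 10.45 and 10.47 in KO188, a fall of 0.39 (SE 0.026, adjusted p = 8.4e-05). The arrays of each group were nearly level for both. Ttk, the gene of the Mps1 kinase that starts checkpoint signalling, fell by 0.26, with all 3 KO188 arrays at 9.45, and Mad2l1, the Mad2 gene, fell by 0.18.

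Bub3, the partner gene of both Bub kinases, did not pass. It read 11.44, 11.36 and 11.48 in WT and 11.35, 11.34 and 11.32 in KO188, a change of -0.09 with a 95% interval from -0.175 to 0.002 (limma adjusted p = 0.14). The lowest WT array lay just above the highest KO188 array. With median centring (-0.14, adjusted p = 0.023) and without WT replicate 2 (-0.12, adjusted p = 0.034) it did pass; over 14 alternatives its adjusted p ran from 0.023 to 1.

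All 4 genes of the chromosomal passenger complex, which corrects wrong attachments and later guides cytokinesis, fell, by a median of 0.30. Aurkb, its kinase gene, read 12.14, 12.14 and 12.22 in WT and 11.86, 11.85 and 11.89 in KO188, a fall of 0.30 (SE 0.032, adjusted p = 0.00071). Cdca8, which encodes the borealin subunit, read 10.44, 10.50 and 10.44 in WT and 10.17, 10.05 and 10.09 in KO188, a fall of 0.36 (SE 0.040, adjusted p = 0.00083). No array of 1 group reached the other in either gene. Birc5, the survivin gene, fell by 0.31 with the widest spread of the WT arrays among the 4 (10.10 to 10.32), and Incenp, the scaffold gene, fell by 0.18.

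All 6 centromere and kinetochore genes fell, with a median of -0.39. Cenpf, a gene of the outer kinetochore that peaks in late cycle cells, read 10.14, 10.21 and 10.21 in WT and 9.67, 9.76 and 9.70 in KO188, a fall of 0.47 (SE 0.036, adjusted p = 0.00016). Spc25 read 9.53, 9.55 and 9.56 in WT and 9.12, 8.99 and 9.05 in KO188, a fall of 0.49 (SE 0.038, adjusted p = 0.00017). It encodes a subunit of the Ndc80 complex, the main microtubule coupler of the kinetochore. Of the genes of its other subunits, Ndc80 (-0.33), Nuf2 (-0.33) and, from the further kinetochore list, Spc24 (-0.23, adjusted p = 0.0013) fell as well; Spc24 was named after its value was seen. Cenpa, the centromeric histone H3 variant gene, fell by 0.44, and Cenpe, which encodes a kinetochore motor, fell by 0.13, the smallest change of the 6.

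All 7 genes of spindle motors and microtubule-binding proteins fell, with a median of -0.36. Hmmr, whose product helps to focus spindle poles, read 10.35, 10.36 and 10.32 in WT and 9.85, 9.71 and 9.76 in KO188, a fall of 0.58 (SE 0.040, adjusted p = 0.00010), or 32.9%. Aspm, a spindle pole gene known from inherited microcephaly, read 10.13, 10.09 and 10.15 in WT and 9.59, 9.68 and 9.59 in KO188, a fall of 0.51 (SE 0.036, adjusted p = 0.00011). The groups stood well apart in both. Nusap1, a microtubule-bundling protein gene, fell by 0.47, and the motor genes Kif4 (-0.36), Kif11 (-0.32) and Kif2c (-0.23) fell less, Kif11 being the motor that pushes the poles apart and Kif2c a microtubule depolymerase. Tpx2, which activates Aurora A on the spindle, fell by 0.32.

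The group of the anaphase promoting complex and separase held the gene that went the other way. Pttg1, which encodes securin, the inhibitor that keeps separase inactive until anaphase, read 9.56, 9.62 and 9.67 in WT and 10.28, 10.27 and 10.28 in KO188. It was 1.58-fold higher in KO188 (log2 change 0.66, SE 0.034, limma adjusted p = 2.9e-05), the largest change in size of the 43. All KO188 arrays lay far above the highest WT array, and the 95% interval was 0.577 to 0.742. Over 14 alternatives the change stayed between 0.61 and 0.69, though some of these settings leave the fitted change as it is.

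Espl1, the separase gene itself, fell by 0.30, from 9.89, 9.82 and 9.81 in WT to 9.57, 9.56 and 9.48 in KO188, so that securin and separase transcripts moved in opposite directions. Cdc20, the activator gene that directs the complex to securin, read 11.13, 11.10 and 11.12 in WT and 10.70, 10.56 and 10.59 in KO188, a fall of 0.50 (SE 0.039, adjusted p = 0.00017). Ube2c, the gene of a ubiquitin-conjugating enzyme that works with the complex, fell by 0.20. Thus the 3 genes beside Pttg1 each fell, with no overlap between groups.

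Central spindle and cytokinesis genes had the lowest median among groups of 4 or more genes, at -0.44, and all 6 fell. Kif23, the motor subunit gene of centralspindlin, read 11.52, 11.52 and 11.56 in WT and 10.92, 10.99 and 10.93 in KO188. This was 1.51-fold higher in WT (log2 change -0.59, SE 0.030, adjusted p = 2.7e-05), the largest fall of the 43. Anln, which encodes the ring scaffold anillin, read 12.14, 12.11 and 12.12 in WT and 11.66, 11.60 and 11.64 in KO188, a fall of 0.49 (SE 0.027, adjusted p = 3.7e-05). Racgap1, the other centralspindlin gene, fell by 0.43, and Ect2, the exchange factor gene it recruits to activate RhoA, fell by 0.39. Prc1, which bundles central spindle microtubules, fell by 0.46, and the motor gene Kif20a fell by 0.39. The 6 changes lay between -0.59 and -0.39, so that the smallest of them exceeded every change of mitotic entry genes; the difference between the groups was not tested.

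**Figure D3:**
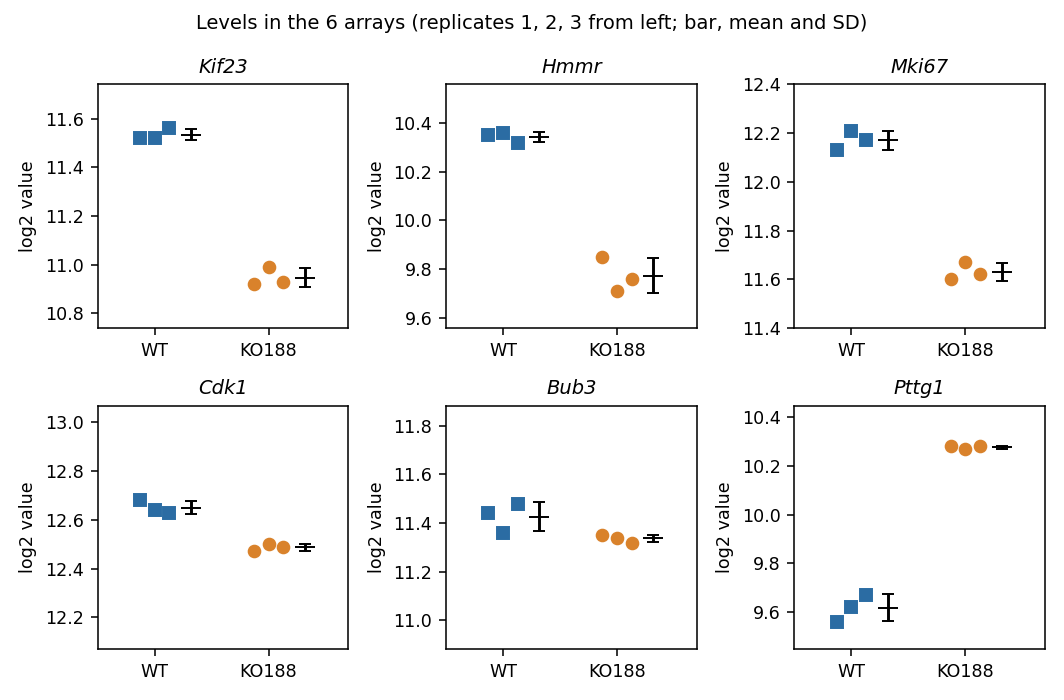
Log2 probe set values of 6 genes on the 3 WT arrays (squares) and the 3 KO188 arrays (circles), with the mean and SD of each group beside them; every panel spans 1 log2 unit. Kif23, Hmmr and Mki67 show the wide gap of the larger falls, Cdk1 a narrow one, Bub3 groups that nearly touch, and Pttg1 the opposite direction.

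Further mitotic genes, listed by function outside the 44, were lower in part. The counts below stand beside 16.5% lower and 13.3% higher over all tested genes. Of 39 measured spindle and cytokinesis genes 30 fell and 0 rose (0 also at an unadjusted p under 0.05), with a median of -0.28. The lowest p were those of Pimreg, which read 11.05, 11.03 and 11.09 in WT and 10.30, 10.29 and 10.25 in KO188 (-0.78, limma adjusted p = 6.9e-06), and Depdc1b (-0.49). Among 35 kinetochore and centromere genes 23 fell, with a median of -0.19, Kntc1 (-0.39) and Cenpi (-0.40) with the lowest p, and 1 rose, Zwint (0.15, adjusted p = 0.0070), whose product ties the checkpoint complex to the kinetochore. Condensin and cohesin genes fell in 16 of 21, with a median of -0.20. The condensin subunit genes Ncapg (-0.46) and Ncapd2 (-0.41) had the lowest p.

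Among 20 further entry and exit regulators 11 fell (55.0%) and 3 rose, against 16.5% lower and 13.3% higher over all tested genes. Cks1b, which encodes a small subunit of cyclin-dependent kinases, read 12.74, 12.72 and 12.70 in WT and 12.00, 11.94 and 11.91 in KO188 (-0.77, adjusted p = 1.1e-05), and Mybl2, the B-Myb gene of the activating MuvB complex, fell by 0.60. The 3 that rose were Lin54 (0.28) and Lin52 (0.21), core subunit genes of MuvB, and Wee1 (0.19), the gene of the kinase that holds Cdk1 inactive. The Lin52 and Wee1 calls were lost in the treat test. The other Lin genes of the list, Lin9 (0.02) and Lin37 (0.05), did not pass (limma adjusted p = 0.81 and 0.39). The anaphase promoting complex list also holds Ube2s, a ubiquitin-conjugating enzyme gene, and Fzr1, an activator gene, neither of them a core subunit. Of its 16 genes 9 fell, both of these among them, with a median of -0.11. Ube2s (-0.36) and Anapc5 (-0.38) had the lowest p. Leaving out 1 array in turn gave from 5 (without KO188 replicate 2) to 7 (without WT replicate 3) of those 16 lower. Quantile normalization gave 6, and median centring 11, with 25.7% of all tested genes lower in that last setting.

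Genes of DNA replication, which act before mitosis, fell in 19 of 33 (57.6%), with a median of -0.16. Over all tested genes 16.5% were lower and 13.3% higher. Rrm2 (-0.52) and Pola1 (-0.55) had the lowest p, and Cdt1, the licensing factor gene, rose by 0.14 (adjusted p = 0.0066), a call lost with median centring. Of 6 measured inhibitors of cyclin-dependent kinases 3 rose, Cdkn2b (0.47), Cdkn1b (0.29) and Cdkn2a (0.17), 2 fell, Cdkn2c (-0.21) and Cdkn2d (-0.23), and Cdkn1c did not pass (0.09). The Cdkn2d call was lost without WT replicate 1 or WT replicate 3.

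Markers of other dividing marrow cells were read beside these values. Granulocyte markers (10 measured), lymphocyte markers (9) and erythroid markers (6) had 0 calls by limma, and 0 at an unadjusted p under 0.05. As means over the 6 arrays, only 4 granulocyte, 4 lymphocyte and 4 erythroid markers were above the receptor guide. Most granulocyte and lymphocyte markers were thus too dim for the lack of calls to say much. With median centring, where 25.7% of all tested genes were lower, 1 granulocyte and 1 lymphocyte marker fell. A lymphocyte marker also fell with quantile normalization and without KO188 replicate 2 or KO188 replicate 3. Mean levels of the granulocyte, lymphocyte and erythroid lists were 6.07 to 6.09, 6.26 to 6.30 and 6.995 to 7.017 on the WT arrays. On the KO188 arrays they were 6.08 to 6.15, 6.14 to 6.31 and 6.968 to 7.078. Of 14 macrophage markers 1 rose, Mpeg1 (1.32), and 1 fell, Cd74 (-0.29). Mpeg1 had a mean of 5.72 in WT, under the receptor guide, and of 7.04 in KO188. Mean levels of the 14 markers were 6.66 to 6.68 in WT and 6.67 to 6.77 in KO188. Ptprc, the pan-leukocyte marker, was at 6.25 and 6.23, under the receptor guide. With median centring (25.7% of all tested genes lower) or quantile normalization, 3 of 14 macrophage markers and 1 of 8 endothelial markers fell. Without KO188 replicate 1, 2 macrophage markers fell. As means over the 6 arrays, only 5 macrophage and 3 endothelial markers were above the receptor guide. Of 8 endothelial markers 1 rose, Kdr (0.24), a call lost with median centring and without any 1 of the 3 WT arrays or KO188 replicate 1. Stromal markers rose in 7 of 13, Pdgfra (0.87) most, and fell in 2, Nt5e (-0.85) and Cd44 (-0.33). Over all tested genes 13.3% were higher and 16.5% lower. Osteoblast markers rose in 3 of 7, Alpl (2.08) most, with 1 fall, Phex (-0.16), a call lost without any 1 of WT replicates 1 and 2 and KO188 replicates 1 and 3. The Sp7 rise (0.36) did not pass when any WT array or KO188 replicate 3 was left out. As means over the 6 arrays, only 3 of the 7 osteoblast markers were above the receptor guide. Sp7 (6.59) and Phex (6.51) were under it. What part such shifts have in the mitotic changes was not tested.

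**Figure D4:**
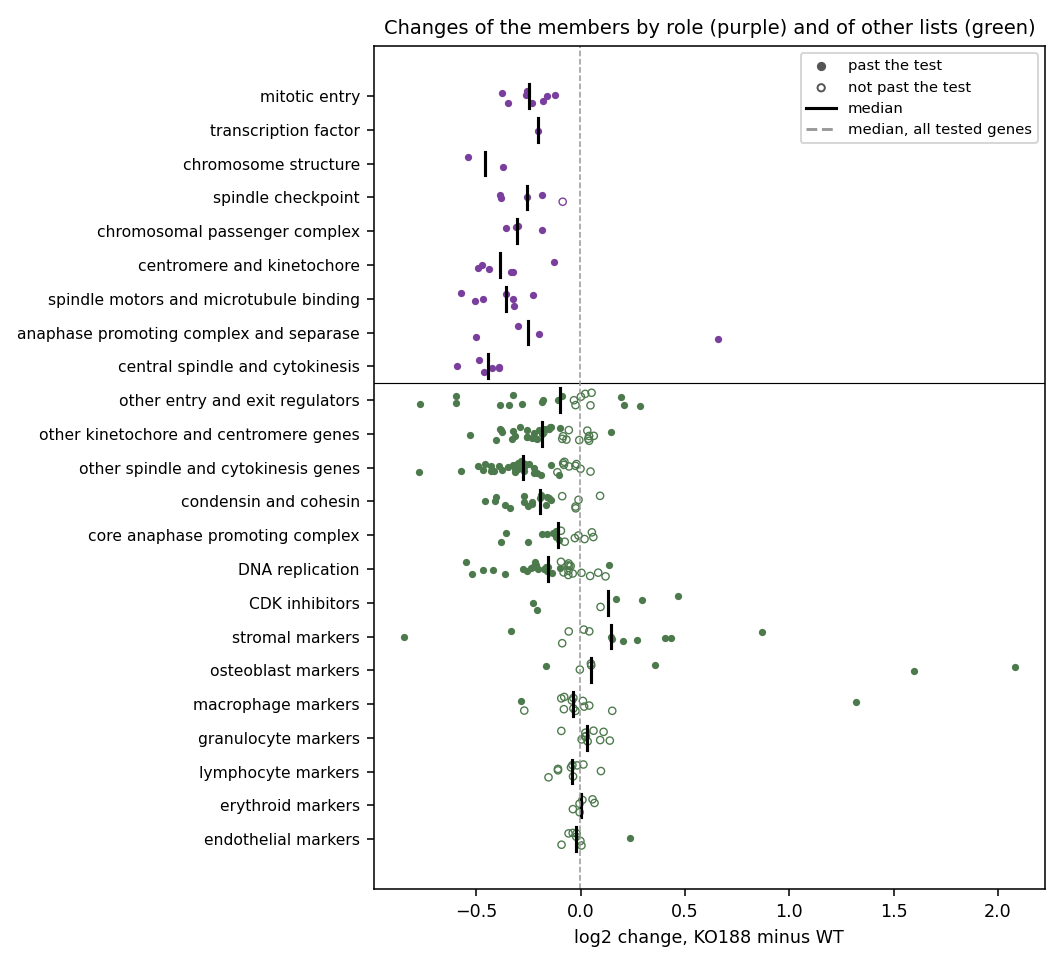
Each point is the log2 change (KO188 minus WT) of 1 gene, filled where limma called it (adjusted p under 0.05); black ticks are list medians and the dashed line is the median of all tested genes. The groups of the 43 genes (purple) lie to the left apart from Pttg1, and the lists of further mitotic and replication genes (green) have medians from -0.28 to -0.10, while those of blood cell markers straddle the dashed line. The row labelled core anaphase promoting complex also holds Ube2s and Fzr1, which are not core subunits.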

How the data were processed

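The authors deposited log2 values of 35556 probe sets for each of 6 Affymetrix arrays. Affymetrix Expression Console, Partek and RMA are listed, per the submitters' processing notes, without versions or roles, and no genome build is given in the sources used here. RMA compresses dim signals, so changes of dim genes are understated. GEO's platform annotation gave 21789 probe sets 1 gene symbol, and 1621 with several were not named. Groups came from the sample titles. WT and KO188 (3 arrays each) were fitted without covariates by lmFit and eBayes of limma 3.58.1 (R 4.3.3), with Benjamini-Hochberg adjustment over 19938 genes and a threshold of 0.05. The number of arrays limits the precision. Intervals are 95% intervals of that fit.

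The genes and lists were chosen with earlier results of these data known; 237 of 251 entries of the other lists were measured. Values in every array are given for the 2 genes with the lowest p in each functional group and for those that rose or did not pass; Espl1 was added after its values were seen. Of each further list the 2 genes with the lowest p and up to 3 against its direction are named. Marker genes beyond these, and Lin9 and Lin37, were named after their values were seen. Same-numbered arrays did not deviate together over all tested genes (r = 0.02, 0.01 and -0.03 for replicates 1, 2 and 3). This cannot exclude a pairing, but the labels state none, so the arrays were fitted unpaired. The fit was tested on simulated arrays. Motifs were matched by exact letters. Figures used matplotlib 3.10.9.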

Additional observations from a re-analysis of the deposited data

How the results depend on the processing

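Over 14 alternatives no change of the 43 genes turned its direction, and between 30 and 42 of them were lower with 1 higher. Some settings alter only the test or its gene set and leave the fitted changes as they were. Such settings could not turn a direction. They were the treat test, the replicate block, trend and robust variances, every probe set on its own and leaving out dim genes. Averaging probe sets could alter only Top2a. Of the 42 called genes 30 kept the call throughout. With each array centred on its median, the median change of the 43 genes moved from -0.33 to -0.39, by the construction of that setting. The treat test against a 1.1-fold change called 2348 genes in place of 5937, since it asks for larger changes; 30 of the 43 were then lower. Leaving out 1 array in turn gave 40 to 42 of the 43 lower, a median change from -0.35 to -0.33 and 4835 to 5553 calls over all genes. With the replicate number as a block 40 of the 43 were lower and 5019 genes were called in all; Plk1 lost its call there (adjusted p = 0.053). Since the labels state no pairing, the block is not read as one. Quantile normalization, trend and robust variances, every probe set on its own and leaving out genes below the 50th percentile each gave 41 of the 43 lower, and averaging the probe sets of each gene gave 40. Under the treat test, with 5.92% of all tested genes lower, the further lists had fewer calls. Lower were 7 of 20 entry and exit regulators, 8 of 35 kinetochore and 21 of 39 spindle and cytokinesis genes. So were 10 of 21 condensin and cohesin, 3 of 16 anaphase promoting complex and 7 of 33 replication genes. With the replicate block 5 of the 16 anaphase promoting complex genes were lower.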

Other observations

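Pttg1 was set beside the tested genes next to it on its chromosome, in RefSeq order, a choice made after its value was seen. Slu7, a splicing factor gene and its nearest tested neighbour on 1 side, was also higher in KO188, at 10.18 ± 0.035 (SD, n = 3) against 9.97 ± 0.004 (n = 3; log2 change 0.21, limma adjusted p = 0.0016). Mir146, the nearest on the other side, did not pass (0.05, adjusted p = 0.31) and lay far under the receptor guide in both groups. Of the 5 tested genes on each side, Ccng1, a p53-responsive cyclin G gene, fell by 0.16 (adjusted p = 0.0030), and the other eight beside Slu7 and Ccng1 did not pass.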
